A study of Arabidopsis thaliana with 12 samples.

Results

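The 10 genes described here encode WRKY transcription factors of group I (WRKY33, WRKY25), group IIa (WRKY18, WRKY40, WRKY60) and group IIc (WRKY28, WRKY48, WRKY50, WRKY51, WRKY75). They were chosen by locus as members of these groups with a known place in plant defence, with earlier results of these data known. Values were present for 9 of the 10 among the 14897 genes of the table. WRKY60 (AT2G25000) was not analysed here for expression. Seedlings of Arabidopsis thaliana, 14 days old and grown in liquid culture under continuous light, were treated for 48 h with 20 mM L-glutamate (L-Glu) or with 20 mM urea, and total RNA was sequenced. The genotypes were the wild type Col-0 and the mutant sid2, with 3 libraries for each of the 4 groups (Col-0 urea, Col-0 L-Glu, sid2 urea, sid2 L-Glu). The product of SID2, isochorismate synthase, makes the precursor of most salicylic acid (SA) in infected leaves. The sid2 allele is not named in the sources used here, and since the labels' genotype entry reads Col-0 throughout the 12 libraries, genotype was read from the titles. All groups received a nitrogen compound and no untreated group was analysed, so each L-Glu effect is relative to urea.

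WRKY proteins bind the W-box, a DNA element with the core TTGAC followed by C or T, which is common upstream of defence genes and of WRKY genes themselves. Group I proteins carry a pair of WRKY domains. WRKY33 is phosphorylated by the kinases MPK3 and MPK6 after pathogen perception and activates camalexin synthesis genes, and WRKY25 is its close relative. Group IIa proteins have a leucine zipper, bind each other and act largely as repressors that limit immune signalling. In group IIc, WRKY28 binds the SID2 promoter, WRKY50 and WRKY51 act in the repression of jasmonate signalling by SA, WRKY75 acts in SA production, senescence and phosphate starvation, and WRKY48 is a negative regulator of basal defence.

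Upstream sequences are shown for the listed genes in which copies of a motif lay close together, and for WRKY33, the member with the highest signal. They were taken from the RefSeq annotation and genome of build TAIR10.1, on the strand of the gene, 5′ to 3′, and positions count upstream from the annotated gene start. The W-box was searched as TTGACC or TTGACT on both strands in the 1000 bases upstream. Capitals mark W-box matches in the first 4 sequences, where a match on the opposite strand reads GGTCAA or AGTCAA. The lines give WRKY18 (chr4:15382012-15382091, from -765 to -686), WRKY40 (chr1:30382714-30382793, from -847 to -768), WRKY60 (chr2:10628995-10629074, from -667 to -588) and WRKY33 (chr2:16108105-16108234, from -130 to -1).
WRKY18: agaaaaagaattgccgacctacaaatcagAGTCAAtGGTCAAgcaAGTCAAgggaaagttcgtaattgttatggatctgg
WRKY40: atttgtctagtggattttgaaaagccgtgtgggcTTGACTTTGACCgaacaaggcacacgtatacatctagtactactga
WRKY60: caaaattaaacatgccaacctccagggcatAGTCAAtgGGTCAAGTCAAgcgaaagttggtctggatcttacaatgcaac
WRKY33: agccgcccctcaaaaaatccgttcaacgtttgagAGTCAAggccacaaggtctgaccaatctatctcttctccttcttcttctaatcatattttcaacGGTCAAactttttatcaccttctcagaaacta

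The 3 group IIa genes each held W-boxes side by side. WRKY18 and WRKY60 had 3 matches within 30 bases, which was true of 21 of 14819 upstream regions of the same length (0.142%). In WRKY40 a pair of matches followed each other without a gap, and at least 2 matches within 30 bases were present in 767 of the 14819 regions (5.18%). These were the only 3 of the 10 listed genes with such a cluster. WRKY33 had 4 separate matches in 1000 bases, the nearest at -32 to -27. At least 1 match was present in 1000 bases for all 9 measured members, against 67.9% of all regions, and in 250 bases for 4 of 9, against 29.2%. The windows and motifs were chosen with the matches in view, and a match is a run of letters, not a bound site.

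The fifth sequence is that of WRKY51 (chr5:25908087-25908166, from -160 to -81), in which capitals mark TGACG, the core recognised by TGA factors, on either strand. The last run of capitals holds a pair of overlapping matches on opposite strands.
WRKY51: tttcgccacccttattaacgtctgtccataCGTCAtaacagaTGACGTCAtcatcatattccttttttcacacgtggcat
Its 250 upstream bases thus held 3 matches within 30 bases, as did 10 of 14819 regions (0.0675%). At least 1 TGACG lay in the 250 upstream bases of 19.8% of all regions and of 3 of the 9 measured members. The measured members with none there were WRKY18, WRKY33, WRKY28, WRKY48, WRKY75 and WRKY50, the close relative of WRKY51. In 1000 bases at least 1 TGACG lay in 55.6% of all regions and in 6 of the 9 measured members. At least 4 lay in 2.21% of all regions and in 2 of the 9, WRKY75 (5) and WRKY40 (4). The part of these matches in the members' levels was not tested.

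**Figure D1:**
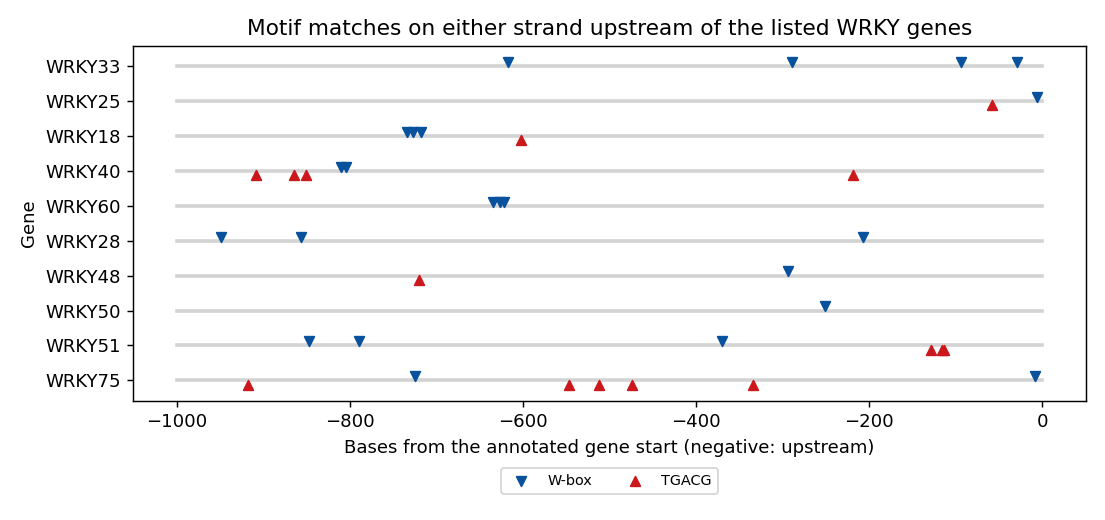
Positions of W-box matches (down-pointing triangles) and TGACG matches (up-pointing triangles) on either strand in the 1000 bases upstream of the 10 listed genes; the x axis gives bases from the annotated gene start. The W-boxes of WRKY18, WRKY40 and WRKY60 lie close together between -813 and -619, and WRKY51 holds its 3 TGACG matches between -130 and -111.

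Values are given as deposited, in units of normalized signal per gene. Library totals were 2564533 to 3051489 with urea and 3900394 to 4419987 with L-Glu, and library medians were alike at 74.1 to 77.2. Read depth is unknown. Col-0 L-Glu library 2 lay apart from its group on the second principal component (52.0 against 21.4 and 24.0), and Col-0 urea library 1 on the third (56.6 against -9.20 and -11.9). Library 2 was the lowest of the Col-0 L-Glu libraries for 8 of the 9 members and for 37.6% of all genes. Without these 2 libraries all 9 members were still called higher with L-Glu in both genotypes. The SID2 transcript was itself present in sid2, at 43.3, 29.8 and 65.4 with urea and at 7434, 5421 and 7340 with L-Glu, so its level does not check the genotype labels. In Col-0 it was at 98.3, 100 and 89.6 with urea and at 9615, 7461 and 10896 with L-Glu.

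The first comparison set L-Glu against urea within each genotype. All 9 measured members rose with L-Glu in Col-0 and in sid2, and no library with L-Glu overlapped one with urea for any of them. In the limma fit over all genes, 60.1% of the 14897 genes were called in Col-0 and 64.4% in sid2 at a Benjamini-Hochberg adjusted p under 0.05. Called higher were 29.7% in Col-0, 32.0% in sid2 and 25.2% in both. Groups that did not overlap, with L-Glu higher, were found for 30.7% of all genes in Col-0 and 35.6% in sid2. The median log2 fold change of the members was 5.46 in Col-0 and 5.76 in sid2, against -0.048 and -0.020 over all genes. The lowest gene mean in the table was 6.93, so a gene low with urea may owe its row to L-Glu. WRKY60 has no values, and these counts do not describe all 10 genes.

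In group I, WRKY33 had the highest signal of all members in each of the 4 groups. WRKY33 (AT2G38470, chr2:16108235-16110766, plus strand) stood at 360, 567 and 758 in Col-0 with urea and at 27062, 20979 and 31613 with L-Glu. In sid2 it was at 389, 596 and 362 with urea and at 24615, 21861 and 25628 with L-Glu. It changed from a rank of 709 to a rank of 5 among all genes by mean signal in Col-0, and from 1051 to 6 in sid2. Its log2 fold change was 5.60 (SE 0.286, adjusted p = 2.85e-12) in Col-0 and 5.76 in sid2. The libraries of the genotypes overlapped under both treatments.

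WRKY25 (AT2G30250, chr2:12903208-12905338, minus strand) was at 235, 397 and 331 in Col-0 with urea and at 13913, 6520 and 11556 with L-Glu. The sid2 libraries were at 299, 269 and 258 with urea and at 17596, 13551 and 15407 with L-Glu. Col-0 L-Glu library 2 was the lowest of all libraries with L-Glu. The log2 fold change was 5.0 in Col-0 and 5.79 in sid2, and the difference of 0.79 (SE 0.375) did not pass the test (limma adjusted p = 0.293). In the annotation WRKY33 overlaps a protein-coding gene and a long non-coding RNA gene on the opposite strand, and WRKY40 overlaps a protein-coding gene there. It is not stated whether strand was used in counting, so reads of these partners may be included.

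Members of group IIa changed by unequal amounts. WRKY40 (AT1G80840, chr1:30383561-30385499, plus strand) was at 25.6, 32.3 and 17.5 with urea and at 1413, 1017 and 1287 with L-Glu in Col-0. In sid2 it was at 19.3, 33.1 and 20.1 with urea and at 1114, 934 and 877 with L-Glu. Urea values were alike in both genotypes, and the log2 fold change was 5.46 (SE 0.230, adjusted p = 1.73e-13) in Col-0 and 5.17 in sid2.

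WRKY18 (AT4G31800, chr4:15382777-15385100, plus strand) was at 143, 118 and 167 with urea and at 547, 347 and 642 with L-Glu in Col-0. Libraries of sid2 were at 71.6, 116 and 78.5 with urea and at 1112, 1028 and 802 with L-Glu. The sid2 libraries thus lay below all Col-0 libraries with urea and above all of them with L-Glu. Of all genes, 5.37% lay without overlap as lower with urea and 16.3% as higher with L-Glu. With urea the nearest values were 116 and 118, and the difference was not called (limma adjusted p = 0.516). WRKY18 rose 3.45-fold in Col-0 (log2 1.79, SE 0.237, adjusted p = 2.51e-06) and 10.8-fold in sid2 (log2 3.43, SE 0.237, adjusted p = 2.40e-10).

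**Figure D2:**
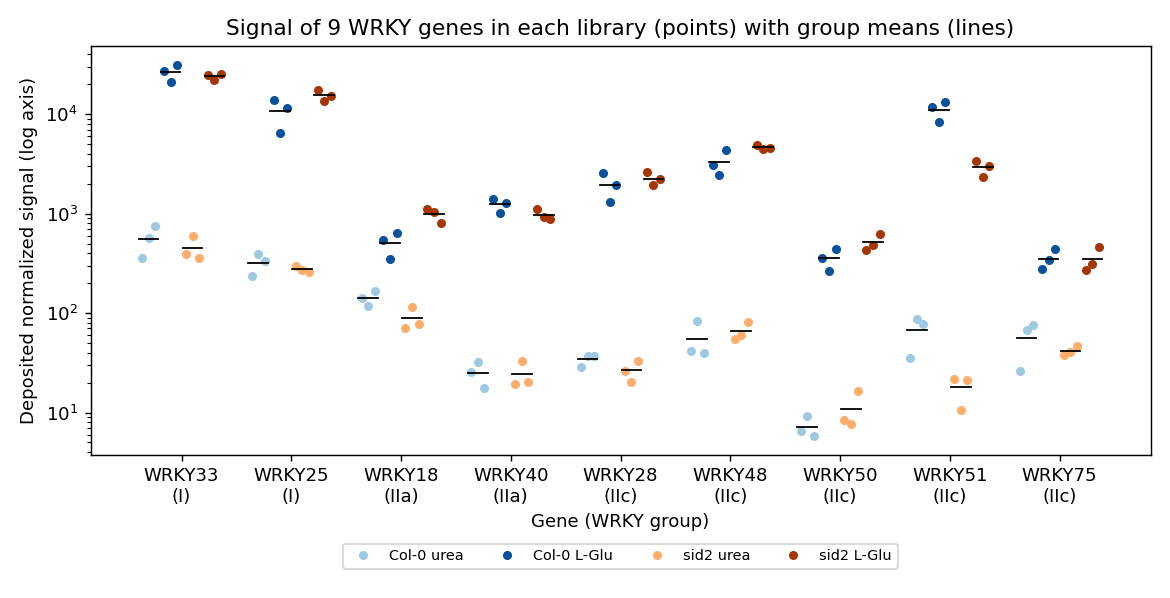
Deposited normalized signal (y axis, log scale) of the 9 measured WRKY genes in each of the 12 libraries (points) with group means (lines), by gene and WRKY group on the x axis. For every gene the L-Glu libraries lie above the urea libraries. WRKY51 is lower in sid2 than in Col-0 under both treatments. WRKY18 is lower in sid2 with urea, a difference that was not called, and higher with L-Glu.

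Because WRKY18 and WRKY40 bind each other, their signals were compared within each library. These signals were not divided by exonic length (2027 bases for WRKY18, 1325 for WRKY40), so a log2 ratio of 0 need not mean equal transcript levels. Per kilobase of exon in sid2 with L-Glu, WRKY40 was at 736 ± 93.2 and WRKY18 at 484 ± 79.1, without overlap. That order holds only if the deposited values were not already scaled by length. For the ratio, a pseudocount of 3.49 deposited units was added to each signal. The log2 ratio of WRKY18 to WRKY40 was 2.37 ± 0.63 (SD, n = 3) in Col-0 with urea and 1.74 ± 0.046 in sid2 with urea. With L-Glu it was -1.30 ± 0.28 in Col-0 and 0.0023 ± 0.13 in sid2. It was lower with L-Glu in all libraries of both genotypes, by 2.71 on average (difference -2.71). An exact two-sided permutation test with treatments permuted within genotype gave p = 0.005 (adjusted p = 0.01 over the 2 ratio tests), the smallest that its 400 arrangements can give. The difference between sid2 and Col-0 over both treatments was 0.34 in the corresponding exact permutation test (p = 0.39, adjusted p = 0.39). It averages opposite differences, since the ratio was lower in sid2 on average with urea and higher with L-Glu. Ratios of WRKY60 to the other members could not be tested.

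**Figure D3:**
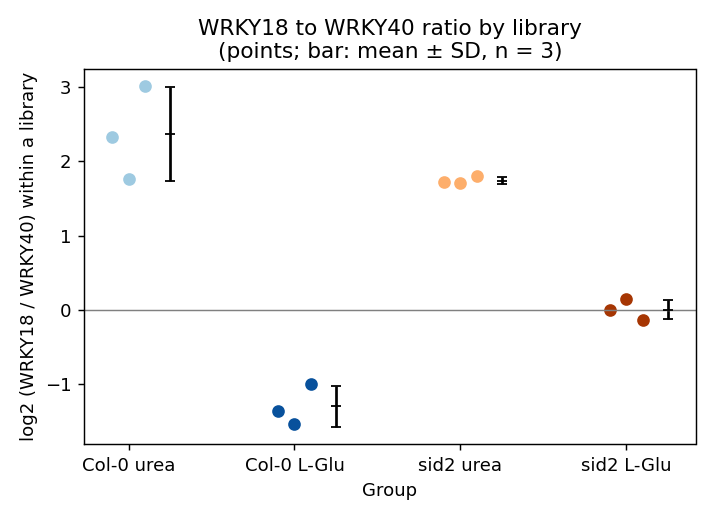
Log2 ratio of the WRKY18 to the WRKY40 signal within each library (points; y axis) in the 4 groups (x axis), with the mean ± SD of 3 libraries beside them. All urea libraries lie above 0. With L-Glu the Col-0 libraries lie between -1.54 and -1.0 and the sid2 libraries around 0. A pseudocount of 3.49 deposited units was added to each signal. Signals are not divided by length, so 0 need not mean equal transcript levels.

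Group IIc spanned the widest range of responses. WRKY51 (AT5G64810, chr5:25908247-25909881, plus strand) was at 35.6, 88.2 and 77.0 in Col-0 with urea and at 11945, 8257 and 13221 with L-Glu. In sid2 it was at 21.9, 10.7 and 21.2 with urea and at 3411, 2363 and 3015 with L-Glu. All sid2 libraries lay below all Col-0 libraries under the same treatment, as was true of 5.37% of all genes with urea and 17.5% with L-Glu. Its log2 fold change with L-Glu was the highest of the members, at 7.37 (SE 0.292, adjusted p = 8.79e-14) in Col-0 and 7.13 in sid2.

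WRKY50 (AT5G26170, chr5:9146879-9148391, minus strand) was at 6.48, 9.25 and 5.80 in Col-0 with urea and at 361, 266 and 437 with L-Glu. In sid2 it was at 8.43, 7.63 and 16.5 with urea and at 434, 482 and 631 with L-Glu. With urea it was close to the library minima, which ran from 0.113 to 6.53, and the pseudocount, which equals 3.49 deposited units, shrinks its log2 fold changes of 5.05 and 5.21. The sid2 libraries overlapped those of Col-0 with urea and, in 1 library, with L-Glu. The ratio of the WRKY51 to the WRKY50 signal, as deposited and without a pseudocount, was compared after the values were seen and was not tested. This ratio was 33.1, 31.1 and 30.3 in Col-0 with L-Glu and 7.87, 4.90 and 4.78 in sid2 with L-Glu.

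WRKY28 (AT4G18170, chr4:10061214-10062893, plus strand) was at 28.4, 36.8 and 37.3 with urea and at 2573, 1296 and 1949 with L-Glu in Col-0. Its sid2 values were 26.0, 20.4 and 33.2 with urea and 2609, 1928 and 2209 with L-Glu. The genotypes overlapped under both treatments, and the log2 fold changes were 5.64 (SE 0.233) and 6.24 (SE 0.233).

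WRKY48 (AT5G49520, chr5:20090648-20093346, plus strand) was at 41.1, 83.1 and 40.0 with urea and at 3110, 2453 and 4322 with L-Glu in Col-0. Values in sid2 were 55.5, 60.0 and 80.9 with urea and 4918, 4451 and 4540 with L-Glu. With L-Glu all sid2 libraries lay above those of Col-0, as was true of 16.3% of all genes. The difference of 0.53 (SE 0.253) did not pass the test (limma adjusted p = 0.174). Its log2 fold changes with L-Glu were 5.86 and 6.09.

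WRKY75 (AT5G13080, chr5:4149738-4151201, minus strand) had the smallest response in this group. It was at 26.0, 67.7 and 75.3 with urea and at 275, 338 and 437 with L-Glu in Col-0, and at 38.0, 40.8 and 46.3 with urea and 270, 310 and 465 with L-Glu in sid2. Log2 fold changes were 2.66 (SE 0.303, adjusted p = 3.44e-07) and 2.93 (SE 0.303, adjusted p = 8.49e-08). The genotypes had nearly the same mean with L-Glu, 350 ± 81.9 and 348 ± 103 (SD, n = 3).

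**Figure D4:**
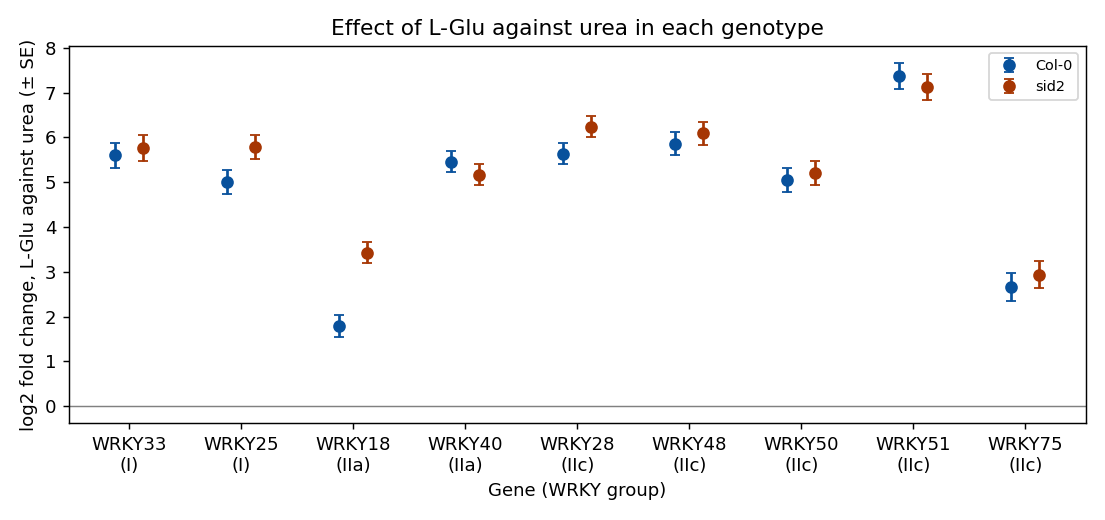
Log2 fold change of L-Glu against urea (y axis, points with SE of the limma fit) for each measured WRKY gene (x axis) in Col-0 and sid2. WRKY51 is highest, WRKY75 and WRKY18 are lowest, and the genotypes are farthest apart for WRKY18 (1.79 and 3.43).

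To set genes against each other, signals were divided by the exonic length of each gene. The sources used here do not say whether the deposited values were already scaled by length, and if they were, the order by length does not hold. With L-Glu in Col-0 the order was WRKY33 (13092 ± 2631 signal per kilobase, SD, n = 3), WRKY51 (11765 ± 2722), WRKY25 (6004 ± 2127), WRKY48, WRKY28, WRKY40, WRKY75, WRKY50 and WRKY18 (253 ± 74.1). WRKY33 and WRKY51 overlapped in that group, as did WRKY48 with WRKY28, WRKY28 with WRKY40, and each neighbouring pair among WRKY75, WRKY50 and WRKY18. In sid2 with L-Glu WRKY51 followed WRKY33 (11851 ± 961) and WRKY25 (8738 ± 1140) at 3094 ± 559, and there these 3 genes did not overlap. With urea WRKY33 and WRKY25 were the highest in both genotypes, at 277 ± 98.2 and 181 ± 46.1 signal per kilobase in Col-0. WRKY18 was at 70.4 ± 12.2 with urea in Col-0, where it overlapped WRKY51 and WRKY75, and at 43.8 ± 11.9 in sid2, where it overlapped WRKY75 and WRKY48. With L-Glu in sid2 it was at 484 ± 79.1 and overlapped WRKY50, which overlapped WRKY75, so that places within these runs were not resolved.

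The next question was whether the members' levels or responses depended on SID2. The response to L-Glu differed between genotypes for 1 of 9 members, WRKY18, with a difference of 1.64 (SE 0.335, limma adjusted p = 0.0245), where 1.95% of all genes were called and 1.28% in the same direction. This call was lost without Col-0 L-Glu library 2 (difference 1.39, adjusted p = 0.0625) and without sid2 urea libraries 1 (1.51, 0.0634) or 3 (1.57, 0.0664) or sid2 L-Glu libraries 1 (1.55, 0.0563) or 2 (1.60, 0.0874). The other 8 estimates lay between -0.29 and 0.79. For WRKY51 the difference in response was -0.24 (SE 0.413, adjusted p = 0.817).

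With urea, WRKY51 was lower in sid2, at -1.67 on the log2 scale (SE 0.292, limma adjusted p = 0.0187), and was 1 of 37 called genes. These were 0.248% of all genes, and those called lower were 0.181%. This call was lost without Col-0 urea libraries 2 (-1.44, adjusted p = 0.0799) or 3 (-1.53, 0.0626) or sid2 urea library 2 (-1.40, 0.126), with a pseudocount of 5 (-1.21, 0.0502), without the intensity trend (0.0796) and in a fit of these 2 groups alone (0.193). WRKY18 was at -0.68 (SE 0.237, adjusted p = 0.516), although its groups did not overlap, as was true in this direction of 5.37% of all genes. SID2 itself was at -1.06 (SE 0.235, adjusted p = 0.0745).

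With L-Glu, WRKY51 was lower in sid2 by -1.91 (SE 0.292, limma adjusted p = 0.000546), a level 0.265 times that of Col-0, and WRKY18 was higher by 0.97 (SE 0.237, adjusted p = 0.0122), 1.95-fold. These 2 of 9 members were called where 13.3% of all genes were, 7.27% higher and 6.04% lower in sid2. Without overlap between the groups lay 16.3% of all genes as higher, among them WRKY18 and WRKY48, and 17.5% as lower, among them WRKY51. The WRKY51 call was kept without any one of the 12 libraries, at adjusted p = 0.00681 or lower. That of WRKY18 was lost without Col-0 L-Glu library 2 (0.71, adjusted p = 0.0826) and without sid2 L-Glu libraries 1 (0.87, 0.0559) or 2 (0.92, 0.0603). The other 7 members were not called, with WRKY25 at 0.60, WRKY50 at 0.55, WRKY48 at 0.53, WRKY28 at 0.26, WRKY75 at -0.020, WRKY33 at -0.13 and WRKY40 at -0.34. The comparisons share libraries, so their values are given side by side only.

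**Figure D5:**
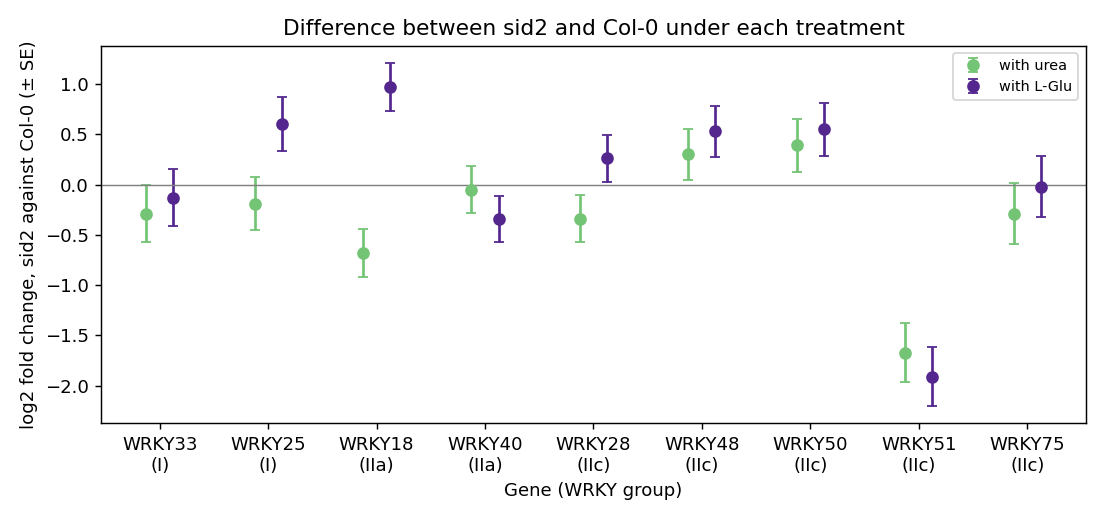
Log2 fold change of sid2 against Col-0 (y axis, points with SE of the limma fit) for each measured WRKY gene (x axis), with urea and with L-Glu. WRKY51 lies at -1.67 and -1.91, WRKY18 at -0.68 and 0.97, and the other genes lie between -0.34 and 0.60.

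Seedlings are a mixture of organs, and in bulk RNA fewer cells of a type and less RNA per cell cannot be told apart. All 6 measured shoot markers (7 listed) fell with L-Glu in both genotypes, and their summed signal was 66500 to 77859 with urea and 821 to 1529 with L-Glu in Col-0, and 81532 to 110295 and 1981 to 3208 in sid2. The 6 measured root markers (8 listed) summed to 2628 to 4135 and 4693 to 9485 in Col-0, and to 2776 to 3472 and 3494 to 4281 in sid2. Most of that sum was BGLU23, whose mean was 2872 with urea and 6170 with L-Glu in Col-0, and 2758 with urea and 3577 with L-Glu in sid2. In Col-0, 3 root markers rose (BGLU23, MYB36 and PHT1;1) and 0 fell, while in sid2 MYB36 and PHT1;1 rose and SCR and SHR fell (both -0.99). For comparison, 60.1% of all genes were called in either direction in Col-0 and 64.4% in sid2. Those called higher were 29.7% in Col-0 and 32.0% in sid2. The part of shoot and root markers in the members' changes was not tested. Scaling each library to one total moved the median of all genes to -0.66 in Col-0 and -0.52 in sid2, and the members then lay between 1.14 and 6.73 and between 2.42 and 6.64, with WRKY18 moving from 1.79 to 1.14 in Col-0.

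Other measured members of the same WRKY groups rose, fell or were not called. Members and lists were chosen with earlier results of these data known, so this contrast is not a test. Of all genes, 29.7% were called higher in Col-0 and 32.0% in sid2. Of 8 measured group I genes outside the list (12 listed), 3 rose and 1 fell in Col-0, and 2 rose and 1 fell in sid2, with medians of 0.19 and 0.0013. WRKY26, a relative of WRKY25 and WRKY33, rose by 1.36 and 1.62, WRKY1 by 0.76 and 0.73, and WRKY3 fell (-1.0 and -2.06). WRKY2 was at 0.67 in Col-0, which passed the test, and at 0.10 in sid2, which did not, and WRKY4 was at -0.16 and -0.41 with no call. Scaling to one total ended the calls of WRKY1 and of WRKY2. That of WRKY2 was also lost without Col-0 urea library 3 (adjusted p = 0.0524) or Col-0 L-Glu library 3 (0.0721). Under that scaling WRKY4 was called lower in both genotypes, at -0.80 and -0.92. Of 3 measured group IIc genes outside the list (13 listed), WRKY23, known in root development, rose by 2.93 and 1.76, WRKY57 fell (-0.77 and -1.25) and WRKY45 was not called (0.24 and -0.29), although scaled to one total it was called lower in sid2 at -0.81.

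Among 8 kinases and VQ proteins that act with WRKY33, 6 rose in Col-0 and 7 in sid2, and 0 fell. The shares of all genes called higher were 29.7% in Col-0 and 32.0% in sid2. The VQ protein genes SIB1 and MKS1, whose products bind WRKY33, rose by 7.91 and 5.74 in Col-0 and by 8.35 and 5.34 in sid2. SIB1 went from 11.3 ± 4.95 to 3475 ± 762 (SD, n = 3) in Col-0. MPK3 rose by 4.07 and 3.91, while MPK6 was at -0.10 in Col-0 and 0.11 in sid2 and was not called in either. CPK6 was at 0.47 and 0.63, both called, and MPK4 at 0.10 without a call in Col-0 and 0.55 with one in sid2. The CPK6 call in Col-0 was lost without Col-0 urea library 3 (adjusted p = 0.0705) or Col-0 L-Glu library 1 (0.0654), with quantile normalization (0.282) and in a fit of the Col-0 groups alone (0.066). The MPK4 call in sid2 was lost with quantile normalization (0.0567). Scaled to one total, CPK6 was at -0.18 and 0.10, neither called, and MPK4 was called lower in Col-0 at -0.55 (adjusted p = 0.0173) and was at 0.03 in sid2.

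Of 8 reported WRKY33 targets only PAD3 and ACS6 had values. PAD3, the last enzyme gene of camalexin synthesis, rose by 2.50 (SE 0.339) in Col-0 and 3.33 in sid2, and ACS6, an ethylene synthesis gene, by 6.85 and 6.83. Group IIa proteins act largely as repressors, and whether WRKY18 or WRKY40 acted on their reported targets here was not tested. All 5 measured genes (8 listed) reported as WRKY18 or WRKY40 targets rose in both genotypes, where 25.2% of all genes were called higher in both. These 5 targets were the mitochondrial stress genes BCS1 (9.38 and 9.66), UPOX (7.29 and 7.75) and AOX1A (5.60 and 5.90), the immune regulator gene EDS1 (3.86 and 3.98) and the abscisic acid response gene ABI5 (2.71 and 2.88).

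Among 7 measured targets and partners of group IIc members (10 listed), 4 rose and 1 fell in Col-0, and 5 rose and 2 fell in sid2. The shares of all genes called higher were 29.7% in Col-0 and 32.0% in sid2. PBS3, an SA synthesis gene, rose by 7.61 and 7.59, SID2 by 6.53 and 7.13, JAV1, whose product binds WRKY51, by 4.93 and 4.92, and AOS, a jasmonate synthesis gene, by 2.26 and 1.65. The catalase gene CAT2, a reported target of WRKY75, fell (-3.24 and -3.56). Whether group IIc members acted on any of these genes was not tested. Over these 6 lists with 33 measured genes, the response differed between genotypes for 0 genes at an adjusted p under 0.05 in limma. At an unadjusted p under 0.05 it differed for 3 of them (WRKY3, WRKY23 and AOS), and for 16.9% of all genes.

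The patterns most like those of the member with the highest mean signal in each group were sought over the 12 libraries among all genes outside the list, by the root mean square distance of centred log2 values. For WRKY33 they were AT2G28400 (distance 0.196, Pearson's r = 0.998), AT2G30020 (0.261, r = 0.996) and SYP122, a syntaxin gene (0.273, r = 0.995). For WRKY40 they were MKS1 (0.206, r = 0.998), AT1G69890 (0.208, r = 0.998) and SZF1, a zinc finger protein gene (0.214, r = 0.997). For WRKY51 the nearest genes were farther away, AT1G13520 (0.623, r = 0.987), SARD1, which encodes an activator of SID2 (0.636, r = 0.986), and SID2 itself (0.669, r = 0.986). These correlations describe libraries that share 2 treatments, and any gene raised by L-Glu has a high one.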

How the data were processed

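Reads were processed by the authors. The submitters' processing notes name, without roles, edgeR 3.22.3, HTSeq 0.6.0, TopHat and TopHat2 2.1.0, and the build TAIR10. The deposited values are a normalized signal per gene, and the normalization is not given in the sources used here. Labels do not say whether libraries came from separate cultures, so p-values reflect only how these libraries vary, which may be technical.

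All values were divided by 3.492, a constant set by the mean library total so that the pseudocount equals 3.49 deposited units, and log2(value + 1) was fitted with limma 3.58.1 (R 4.3.3) with a mean for each of 4 groups, an intensity trend and 8 residual degrees of freedom. P-values were adjusted by Benjamini-Hochberg over 14897 genes, and an adjusted p under 0.05 was called. Fold changes are on this log2(value + pseudocount) scale and understate the change of low genes. The fit was also run on simulated data in which few genes changed. Most genes were called for L-Glu in the real data, so that run does not test the fit under these conditions. The lowest gene mean was 6.93 and no value was 0, and whether low genes were filtered is not given in the sources used here. Of the identifiers, 14819 were found in the RefSeq annotation of TAIR10.1, which gave coordinates and sequences, since the table has none.

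Same-numbered libraries deviated together in the sid2 urea and L-Glu groups (r = 0.116, 0.287 and 0.204, against -0.213 to 0.038 for different numbers). They also did in the urea groups (0.126, 0.219 and 0.196, against -0.127 to -0.0476). In the Col-0 groups the values were smaller but all positive (0.0861, 0.0265 and 0.062, against -0.111 to 0.0408). In the L-Glu groups they were mixed (0.142, -0.11 and 0.112, against -0.221 to 0.101). Deviations from a group mean cancel within the group, so positive values for the same numbers push those for different numbers down by construction. The contrast between them is therefore not independent evidence of pairing. A fit with the replicate number as a block was an alternative. The others were another pseudocount, other scalings, no trend, fits of the compared groups alone and leaving out libraries.

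Members and lists were chosen with earlier results of these data known. Named were all 10 loci, SID2, up to 3 genes per list with the smallest p for L-Glu in Col-0 and up to 2 more with the smallest p for the difference between genotypes, and the 3 genes most like the member with the highest mean signal in each WRKY group. MPK6 was named in addition, as a kinase that phosphorylates WRKY33. Ratio tests with WRKY60 were not run because it has no values.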

Additional observations from a re-analysis of the deposited data

Results flagged for a closer look

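WRKY18 stood out because a direct test of the L-Glu effect in sid2 against that in Col-0 gave a difference of 1.64 on the log2 scale (limma adjusted p = 0.0245, 3 libraries a group). It was 1 of 291 genes called for such a difference, 1.95% of all genes. Leaving out 1 of the 12 libraries at a time lost the call in 5 cases (limma adjusted p up to 0.0874). The Col-0 change was 1.79 and the sid2 change 3.43. Groups of 3 libraries are too small for a test of single outlying libraries.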

How the results depend on the processing

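All 189 member values of each treatment comparison kept their direction and call over the alternatives run. The number of genes called for a difference in response was 291 and became 453 with a pseudocount of 5, 151 with quantile normalization, 143 without the trend and 191 without Col-0 urea library 1 and Col-0 L-Glu library 2, an alternative chosen after seeing the data. Genes called between genotypes with urea were 37 and became 20 with a pseudocount of 5, 60 scaled to one total, 12 without the trend and 5 with only the compared groups. Members called there were 0 with a pseudocount of 5, without the trend and with only the compared groups. Leaving out 1 library at a time gave 8135 to 8875 genes in Col-0, 8812 to 9947 in sid2, 9 to 367 for the difference, 13 to 37 with urea and 792 to 2649 with L-Glu, and 9 to 9, 9 to 9, 0 to 1, 0 to 1 and 1 to 2 members. For the difference the counts were 108 without Col-0 urea library 2, 43 without Col-0 L-Glu library 2, 65, 179 and 41 without sid2 urea libraries 1, 2 and 3, and 107, 9 and 98 when sid2 L-Glu libraries 1, 2 and 3 were left out in turn. With urea they were 20 without Col-0 urea library 2, 13, 16 and 21 without sid2 urea libraries 1, 2 and 3, and, leaving out sid2 L-Glu library 1 or 2, 22 or 24. With L-Glu they were 838 without Col-0 L-Glu library 2, and, leaving out sid2 L-Glu library 1 or 2, 1284 or 792. The ratio of WRKY18 to WRKY40 moved between -2.86 and -2.54 for L-Glu and between 0.18 and 0.5 for genotype. With the replicate block, 9160, 9775, 426, 49 and 2360 genes were called, and no member call changed. Member values that changed sign were never called. Without Col-0 urea library 1 and Col-0 L-Glu library 2, WRKY28 was at -0.0049 between genotypes with L-Glu. With 1 library left out at a time, the differences in response ran from -0.51 to 0.14 for WRKY51, -0.097 to 0.44 for WRKY48, -0.083 to 0.45 for WRKY33 and -0.033 to 0.42 for WRKY50. The genotype values ran from -0.27 to 0.13 for WRKY40 with urea and, with L-Glu, from -0.0049 to 0.49 for WRKY28, -0.29 to 0.0093 for WRKY33 and -0.25 to 0.15 for WRKY75. Among list genes in Col-0, WRKY45 ran from -0.11 to 0.48 and MPK4 from -0.049 to 0.22. Scaling to one total gave WRKY2 -0.39 in sid2, and WRKY45 -0.41, MPK4 -0.55 and CPK6 -0.18 in Col-0, and WRKY45 was at -0.14 without both libraries. The cause was not tested. Read depth is unknown, so no counting interval is given.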
